A study of Homo sapiens with 6 samples.

Results

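The NRF2 antioxidant genes and their AKR1C companions were followed in MDA-MB-231 cells, an established basal, triple-negative human breast cancer line, after knockdown of the zinc finger transcription factor ZNF148. The group comprised 10 genes, chosen by symbol: AKR1C1, AKR1C2, AKR1C3, AKR1B1, NQO1, HMOX1, GCLM, TXNRD1, SRXN1 and SLC7A11. All 10 were found among the 23194 symbols of the expression table, in 9 rows, because AKR1C1 and AKR1C3 share a row with AKR1C4. The genes were listed with the shZNF148 against shCtr contrast already known, so their values in that contrast are given as a description, with no p-value. All 9 rows reached the mean of 1 FPKM (a fragment count corrected for transcript length and for the size of the library) set for fitting, although AKR1C2 did so only through the shZNF148 libraries.

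Total RNA was sequenced from 3 replicates transduced with an LKO lentivirus carrying a hairpin against luciferase (shCtr) and 3 transduced with a single hairpin against ZNF148 (shZNF148). Both groups were transduced for 48 h and selected for 24 h in 0.5 µg/ml puromycin, so that virus and drug are shared by every library. With 1 hairpin against ZNF148, a response to that hairpin cannot be told apart from a response to loss of ZNF148. Nothing says whether the replicates were separate cultures, and the p-values below therefore measure only the spread between these samples.

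NRF2 (the product of NFE2L2) is a transcription factor that KEAP1 and CUL3 normally mark for degradation. Oxidants and electrophiles release it, and with a small MAF partner it binds the antioxidant response element, a short motif near genes for glutathione synthesis, thioredoxin recycling, quinone and carbonyl reduction and haem breakdown. BACH1 competes for the same motif as a repressor and is best known for holding HMOX1 off. Several AKR1C and AKR1B aldo-keto reductases, which use NADPH to reduce steroids, prostaglandins and reactive aldehydes, are widely used as readouts of NRF2 activity in human cells.

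The AKR1C genes lie side by side on chromosome 10 of GRCh38 in GENCODE release 44. AKR1C1 (chr10:4963253-4983283), AKR1C3 (chr10:5035354-5107686) and AKR1C4 (chr10:5195462-5218949) run on the plus strand, and AKR1C2 (chr10:4987775-5018031) lies between the first pair on the minus strand. The joined row thus holds the 3 plus-strand genes and the remaining AKR1C row the minus-strand one. The deposited table has no coordinates of its own. Over the 969 coding bases before the stop codon, AKR1C1 and AKR1C2 were identical at 98.0%, differing at 19 bases. AKR1C3 was identical to AKR1C1 at 91.4% and to AKR1C2 at 91.0%, and AKR1C4 to AKR1C1 at 88.5%. Of the 920 windows of 50 bases along the coding sequence, 51.6% were the same in AKR1C1 and AKR1C2. Read length and untranslated regions were not considered in this count. The first 60 coding bases of each gene are shown because they make this likeness visible, with capitals at the 12 positions where any of the genes differ.
AKR1C1, chr10:4963445-4963504, plus strand: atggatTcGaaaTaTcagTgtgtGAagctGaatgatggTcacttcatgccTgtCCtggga
AKR1C2, chr10:5003776-5003835, minus strand: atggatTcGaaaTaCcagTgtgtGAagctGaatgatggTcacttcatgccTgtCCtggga
AKR1C3, chr10:5094445-5094504, plus strand: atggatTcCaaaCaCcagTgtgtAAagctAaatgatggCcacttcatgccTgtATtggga
AKR1C4, chr10:5196868-5196927, plus strand: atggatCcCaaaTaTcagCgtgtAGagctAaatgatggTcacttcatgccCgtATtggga

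The core of the antioxidant response element, TGACNNNGC on either strand, was searched in RefSeq promoters of GRCh38.p14 that run from 250 bases before to 50 bases after a start site. Of the 35116 promoters in that table, 13.3% held the core. The table had promoters for 8 of the 10 genes, 11 promoters in all, and 3 of these held it, from GCLM and TXNRD1. The promoters of AKR1C1, AKR1C2, AKR1C3, AKR1B1, NQO1 and SRXN1 did not hold these letters within this window, from which nothing follows about NRF2 binding elsewhere. The 4 matches are printed on the strand of the gene with the core in capitals, which reads as GCNNNGTCA where the core lies on the opposite strand.
GCLM, chr1:93909446-93909474, minus strand, core from 34 bases before the start: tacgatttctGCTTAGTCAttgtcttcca
TXNRD1, chr12:104215670-104215698, plus strand, core from 99 bases before the start: acacgggctaTGACTTCGCtgttgtcacc
TXNRD1, chr12:104215761-104215789, plus strand, core from 8 bases before the same start: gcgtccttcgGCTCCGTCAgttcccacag
TXNRD1, chr12:104286920-104286948, plus strand, core from 102 bases before a second listed start: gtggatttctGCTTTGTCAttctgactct

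Across the whole table, summed FPKM ranged from 469594 to 507312 per library, and read depth, known only relative to shCtr replicate 1 from the steps between low values, ranged from 0.806 in shZNF148 replicate 3 to 1.13. ZNF148 was between 3.72 and 4.36 FPKM in shCtr and between 0.282 and 0.914 FPKM in shZNF148, or 16.4% of the control mean (log2 fold change -1.63, standard error 0.18, limma adjusted p = 0.0099). The log2 fold change, taken on log2(FPKM + 1), is smaller than that share implies because the knockdown values lie below the added 1 FPKM. A two-sided exact permutation test gave p = 0.1, which is the lowest value possible with 3 against 3. Without shCtr replicate 1 its adjusted p from limma was 0.0603, and without shCtr replicate 3 it was 0.0568. VIM (at least 1507 FPKM) and AXL (at least 276 FPKM) were high and ESR1 was listed at 0 in every library, while GATA3 and EPCAM, luminal markers, had medians of 8.57 and 10.3 FPKM. The blood cell genes PTPRC and CD3E did not exceed 0.115 FPKM. shZNF148 replicate 2 held the highest value of the 6 libraries in 27.6% of the 11777 rows fitted, against 11.7% to 16.5% for each other library.

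As a ratio of group means, the AKR1C rows differed most between the groups among the 9 rows. AKR1C1 inactivates progesterone, AKR1C3 makes active androgens and prostaglandin F, and AKR1C4 is mainly a liver enzyme of steroid reduction. Their joined row, which cannot be divided among them here, was 32.2, 31.2 and 30.6 FPKM in shCtr replicates 1, 2 and 3 and 68.7, 190.9 and 69.9 FPKM in shZNF148 replicates 1, 2 and 3. Each knockdown replicate lay above all controls, at 2.19, 6.10 and 2.23 times the control mean, with replicate 2 far above the others. Mean levels were 31.3 ± 0.804 and 109.8 ± 70.2 FPKM (SD, n = 3 each), a ratio of 3.51, and without shZNF148 replicate 2 the ratio was 2.21. On the log2(FPKM + 1) scale the difference was 1.60 with a standard error of 0.38, and 1.12 without that replicate.

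AKR1C2, which inactivates dihydrotestosterone, stood at a far lower level in its own row. Its values were 0.250, 0.230 and 0.387 FPKM in shCtr and 1.98, 9.66 and 1.24 FPKM in shZNF148 replicates 1, 2 and 3. The groups did not overlap, and replicate 2 was again the highest library, at 33.4 times the control mean against 6.86 and 4.29 times for replicates 1 and 3. On average the groups stood at 0.289 ± 0.0857 and 4.29 ± 4.66 FPKM (SD, n = 3 each), a ratio of 14.9, which was 5.58 without replicate 2. The log2(FPKM + 1) difference of 1.69 (standard error 0.55) is smaller than this ratio implies because the controls lie below the pseudocount. With 0.1 FPKM added in place of 1 the difference was 2.97. All these ratios divide by a control mean of 0.289 FPKM, close to the floor, so their size is uncertain. AKR1C2 amounted to between 0.737% and 1.27% of the joined row in shCtr and to 2.89%, 5.06% and 1.78% of it in shZNF148 replicates 1, 2 and 3. How far near-identical reads were moved between these rows when the values were made was not tested.

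**Figure D1:**
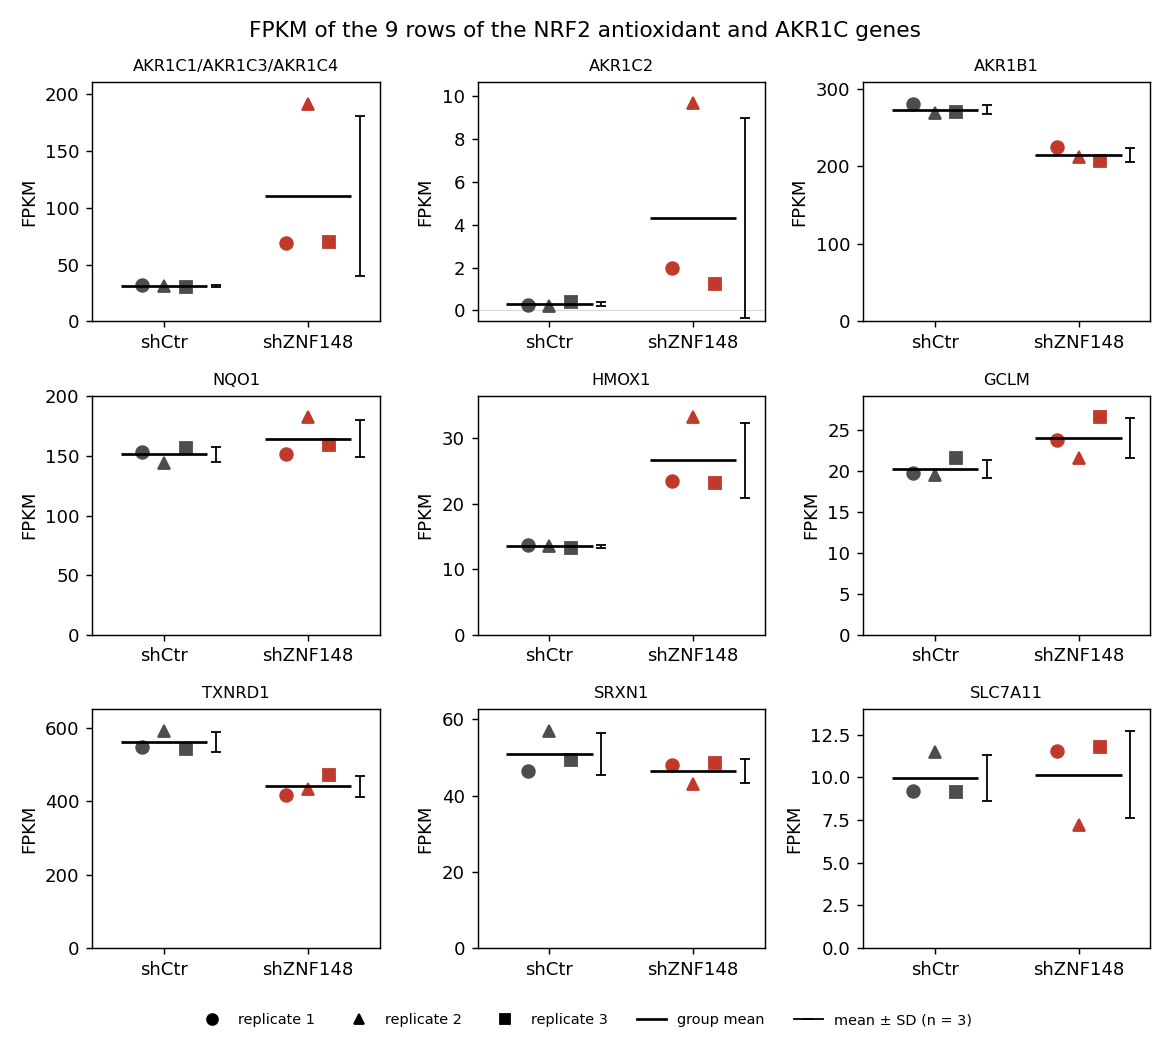
FPKM (vertical axis, linear, with 0 on every axis) of the 9 rows in the 3 shCtr (grey) and 3 shZNF148 (red) libraries, with replicates marked by shape, group means as horizontal lines and bars of 1 SD. The AKR1C1/AKR1C3/AKR1C4, AKR1C2 and HMOX1 panels show shZNF148 replicate 2 at 190.9, 9.66 and 33.2 FPKM, above the other knockdown libraries, which are themselves above the controls.

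AKR1B1 (chr7:134442356-134459284, minus strand), or aldose reductase, converts glucose to sorbitol and reduces lipid aldehydes, and it differed from its AKR1C relatives in direction. It was 280.1, 268.8 and 270.3 FPKM in shCtr and 224.2, 212.1 and 207.0 FPKM in shZNF148 replicates 1, 2 and 3. All knockdown values lay below all controls, and replicate 2 did not stand apart. Group means were 273.1 ± 6.14 and 214.5 ± 8.85 FPKM (SD, n = 3 each), a log2 difference of -0.35 (standard error 0.06), or 21.5% lower. In level per length AKR1B1 remained the most abundant of the aldo-keto reductase rows in both groups, ahead of the joined AKR1C row. Of the other aldo-keto reductases listed, AKR1A1 (28.0 ± 1.21 and 27.1 ± 4.49 FPKM) and AKR7A2 (29.7 ± 1.41 and 32.02 ± 8.44 FPKM; SD, n = 3 each) had groups that overlapped. AKR1B10, a common NRF2 readout in lung and liver tumours, did not exceed 0.577 FPKM in any library and was not fitted.

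HMOX1 (chr22:35380361-35394214, plus strand) encodes the inducible haem oxygenase, which breaks haem down to biliverdin, carbon monoxide and iron. Its values were 13.7, 13.6 and 13.2 FPKM in shCtr and 23.5, 33.2 and 23.2 FPKM in shZNF148 replicates 1, 2 and 3. The controls were tightly grouped and every knockdown replicate was above them. The group averages came to 13.5 ± 0.268 and 26.6 ± 5.71 FPKM (SD, n = 3 each), a ratio of 1.97 and a log2 difference of 0.91 (standard error 0.14). Without shZNF148 replicate 2 the ratio was 1.73. The constitutive enzyme HMOX2 was 42.2 ± 0.835 and 43.7 ± 1.66 FPKM (SD, n = 3 each), with overlapping groups (log2 fold change 0.05, limma adjusted p = 0.606).

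NQO1 (chr16:69706996-69726668, minus strand), the quinone reductase most often read as a sign of NRF2 activity, was abundant in both groups. It was 153.2, 144.2 and 156.7 FPKM in shCtr and 152.0, 182.3 and 159.2 FPKM in shZNF148 replicates 1, 2 and 3. The groups overlapped, with replicate 2 the highest library. Mean FPKM was 151.4 ± 6.41 and 164.5 ± 15.8 (SD, n = 3 each), a log2 difference of 0.12 (standard error 0.08), and 0.04 without replicate 2.

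Glutathione supply depends on cystine import and on glutamate-cysteine ligase. GCLM (chr1:93885199-93909456, minus strand), the modifier subunit of that ligase, was 19.7, 19.5 and 21.5 FPKM in shCtr and 23.8, 21.6 and 26.5 FPKM in shZNF148 replicates 1, 2 and 3. Its groups were separated by the small gap between 21.54 and 21.60 FPKM, and the log2 difference was 0.23 (standard error 0.09). The catalytic subunit GCLC was 10.4 ± 0.904 and 10.3 FPKM on average with overlapping groups (SD, n = 3; log2 fold change -0.01, limma adjusted p = 0.942). SLC7A11 (chr4:138164097-138242349, minus strand), the cystine carrier of the cystine-glutamate exchanger, was 9.23, 11.5 and 9.16 FPKM in shCtr and 11.5, 7.20 and 11.8 FPKM in shZNF148 replicates 1, 2 and 3. Here the lowest library was shZNF148 replicate 2, and the groups overlapped. The log2 difference of 0.00 (standard error 0.19) became 0.21 without that replicate and -0.11 without shZNF148 replicate 3. SLC3A2, the heavy chain of the same exchanger and of other amino acid carriers, rose at the adjusted p but by less than 1.5-fold (log2 fold change 0.30, standard error 0.07, limma adjusted p = 0.037). Its adjusted p reached 0.134 with single libraries left out and stayed under 0.05 only without shZNF148 replicate 2 or 3.

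TXNRD1 (chr12:104215779-104350307, plus strand), the cytosolic thioredoxin reductase, was the most abundant of the 9 rows. It was 549.6, 593.1 and 543.0 FPKM in shCtr and 416.9, 434.5 and 472.8 FPKM in shZNF148 replicates 1, 2 and 3, with every knockdown value below the controls. Mean levels were 561.9 ± 27.2 and 441.4 ± 28.6 FPKM (SD, n = 3 each), a log2 difference of -0.35 (standard error 0.07), or 21.4% lower. SRXN1 (chr20:646615-653200, minus strand), sulfiredoxin, which repairs over-oxidised peroxiredoxins, was 46.5, 57.0 and 49.2 FPKM in shCtr and 48.0, 42.9 and 48.6 FPKM in shZNF148 replicates 1, 2 and 3. Its groups overlapped, with a log2 difference of -0.12 (standard error 0.09). TXN, the thioredoxin that TXNRD1 reduces, was 320.0 ± 14.1 and 351.2 ± 37.3 FPKM (SD, n = 3 each), and PRDX1, a peroxiredoxin that SRXN1 repairs, 440.8 ± 22.4 and 500.3 ± 45.3 FPKM. Neither passed (limma adjusted p = 0.351 and 0.18).

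**Figure D2:**
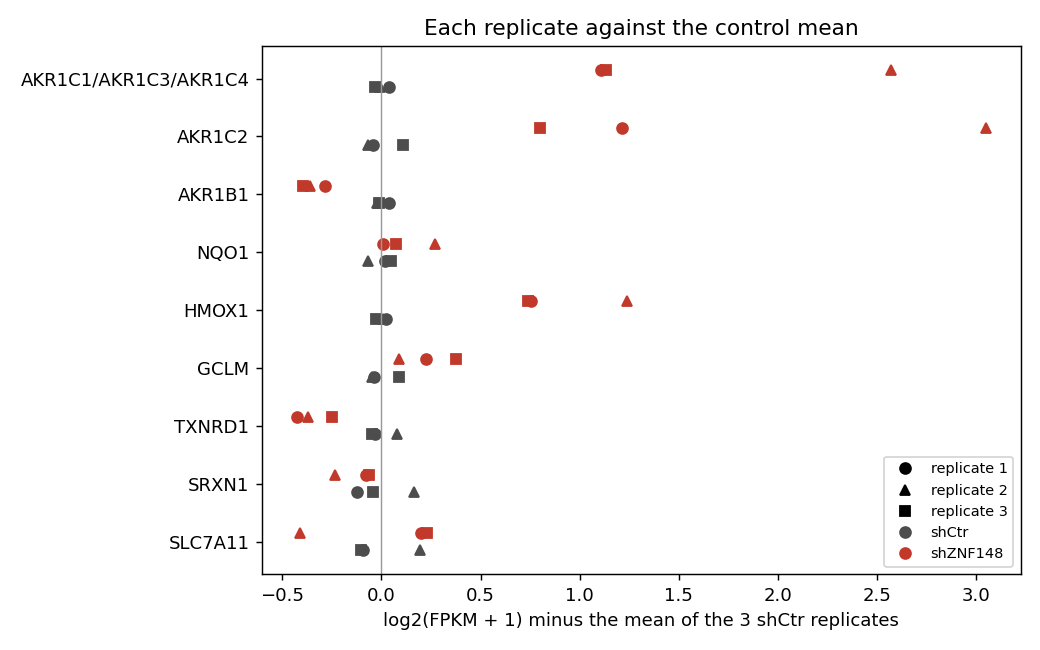
log2(FPKM + 1) of each library minus the mean of the 3 shCtr libraries (horizontal axis), for the 9 rows, with shCtr in grey and shZNF148 in red and replicates marked by shape. The red points of the AKR1C rows and HMOX1 lie to the right of the controls with replicate 2 outermost, those of AKR1B1 and TXNRD1 lie to the left, and NQO1, SRXN1 and SLC7A11 overlap with the controls.

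A row was called where the limma adjusted p was under 0.05 and the change over 1.5-fold, a rule that 1.83% of all fitted rows met as higher and 3.66% as lower in shZNF148 (5.49% in either direction). Of the 9 rows, 2 met it, the joined AKR1C row and HMOX1, both higher. Because the genes were listed with this contrast known, that count and its changes below describe the fit and nothing is read from them. Without shCtr replicate 1, 2 or 3 in turn none of the 9 rows met the limma rule, while calls over all rows dropped to 3 higher and 26 lower without replicate 1, 76 and 175 without replicate 2, and 7 and 40 without replicate 3. Without shZNF148 replicate 1 only HMOX1 met it, and without shZNF148 replicate 2 or 3 both did. AKR1C2 did not meet the rule with either pseudocount of 1 or 5 FPKM and did with 0.1 FPKM. The groups did not overlap in 6 of the 9 rows, 4 higher and 2 lower, where 20% of all fitted rows were separated as higher and 21% as lower (41% in either direction). The remaining 3 rows, NQO1, SRXN1 and SLC7A11, overlapped. The 4 higher rows include AKR1C2, which was fitted only through its shZNF148 libraries, and nothing is read from this count either.

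The rows also differed in how evenly the replicates behaved. In shCtr the coefficient of variation was 2.57% for the joined AKR1C row and 1.98% for HMOX1, below the median of 7.37% over all fitted rows. In shZNF148 it was 63.9% and 21.4%, above the median of 10.8%, and 98.0% of fitted rows varied less than the joined AKR1C row. AKR1B1 and TXNRD1 stayed even in shZNF148, at 4.13% and 6.47%. In bulk RNA, more cells expressing a gene and more of its RNA per cell cannot be told apart.

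The regulators of the pathway were measured in the same libraries. Of 11 fitted rows for NRF2 and its regulators, 6 were higher and 5 lower in shZNF148, with a median log2 fold change of 0.01 (0.01 over all fitted rows), and no row met the call rule of limma, although 5 had an unadjusted p under 0.05, as did 33.8% of all fitted rows. NFE2L2 itself was 63.3 ± 2.48 FPKM in shCtr and 66.7 FPKM on average in shZNF148 (log2 fold change 0.07, limma adjusted p = 0.516). KEAP1, its inhibitor, was 25.8 ± 1.43 and 33.9 ± 4.53 FPKM (SD, n = 3 each) and did not pass (log2 fold change 0.37, limma adjusted p = 0.0573). Without shZNF148 replicate 2 the KEAP1 change was 0.27 with a limma adjusted p of 0.0483. With any other library left out, the limma adjusted p of KEAP1 was between 0.0683 and 0.171. BACH1, the repressor, was 11.3, 11.1 and 11.3 FPKM in shCtr and 6.76, 7.01 and 8.15 FPKM in shZNF148 replicates 1, 2 and 3. BACH1 passed at the adjusted p but under the 1.5-fold threshold on the log2(FPKM + 1) scale (log2 fold change -0.56, standard error 0.09, limma adjusted p = 0.0172). Its limma adjusted p was 0.0833 without shCtr replicate 1, 0.0563 without shCtr replicate 2, 0.0768 without shCtr replicate 3 and 0.0519 without shZNF148 replicate 1. BACH1 met the call rule without shZNF148 replicate 3 (-0.63, limma adjusted p = 0.0268). It also met the rule with a pseudocount of 0.1 FPKM (-0.62, limma adjusted p = 0.0151). Its partner MAFF, a small MAF protein, passed in the same way (log2 fold change -0.46, limma adjusted p = 0.0273, and up to 0.1 with single libraries left out), while MAFK (-0.41, adjusted p = 0.0609) and MAFG (0.19, adjusted p = 0.208) did not. Without shZNF148 replicate 2 MAFK was at -0.49 with a limma adjusted p of 0.0372. The other leave-outs of a single library gave MAFK a limma adjusted p of 0.0817 to 0.178. SQSTM1, which binds KEAP1, was 172.5, 169.8 and 157 FPKM in shCtr and 120.0, 163.0 and 119.6 FPKM in shZNF148 replicates 1, 2 and 3, so that only replicate 2 reached into the control range. SQSTM1 did not pass with all libraries (log2 fold change -0.32, limma adjusted p = 0.13) and did without that replicate (-0.47, adjusted p = 0.0104). Its limma adjusted p lay between 0.209 and 0.293 when any other library was left out.

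The wider antioxidant pathway was covered by 8 lists of 122 genes in all, the regulators above included. Of 108 fitted rows beside the 9 described, 48 were higher and 60 lower, with a median log2 fold change of -0.03. limma called 1 higher (0.926%, background 1.83%) and 3 lower (2.78%, background 3.66%). At the adjusted p alone, 7 were higher (6.48%, background 5.46%) and 10 lower (9.26%, background 8.13%). These shares lie near those of the whole table. Of the 17 rows past the limma adjusted p, 0 stayed past it in all 6 leave-outs of a single library, and 13 passed in no leave-out of a shCtr library, each of which leaves fewer samples to fit.

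The called rows were SLC40A1, MGST1, SOD2 and ATF3. SLC40A1, the iron exporter ferroportin, rose from 0.747, 1.31 and 0.744 to 3.02, 4.52 and 2.16 FPKM (log2 fold change 1.11, standard error 0.23, limma adjusted p = 0.0309). Its shCtr mean of 0.932 FPKM lay below the 1 FPKM set for fitting. It was therefore fitted only through the shZNF148 libraries, which limits what this call can show. MGST1, a membrane glutathione transferase, fell from 140.5, 159.8 and 133.5 to 85.6, 42.3 and 69.3 FPKM, with shZNF148 replicate 2 the lowest (log2 fold change -1.18, standard error 0.24, limma adjusted p = 0.0301; -0.90 without that replicate, adjusted p = 0.0121). SOD2, the mitochondrial superoxide dismutase, fell from 59.0, 69.6 and 50.7 to 35.3, 31.3 and 31.8 FPKM (log2 fold change -0.84, standard error 0.12, limma adjusted p = 0.015). ATF3, a stress-induced factor, fell from 5.78, 6.38 and 4.65 to 3.05, 4.06 and 2.81 FPKM (log2 fold change -0.62, limma adjusted p = 0.0441). Each of these calls was lost without some library. The limma adjusted p was 0.078 for SOD2 without shCtr replicate 1, and reached 0.103 for MGST1, 0.113 for SLC40A1 and 0.144 for ATF3 without that same replicate. The calls of MGST1, SLC40A1 and ATF3 were also lost without shCtr replicate 2 or 3, those of SLC40A1 and ATF3 without shZNF148 replicate 1, and those of MGST1 and ATF3 without shZNF148 replicate 3.

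By list, 25 rows for glutathione synthesis and use split into 10 higher and 15 lower (median log2 fold change -0.06). Of these, 12 had an unadjusted limma p under 0.05, as did 33.8% of all fitted rows. Besides SLC3A2 and MGST1, the adjusted p was passed by, among others, GLRX, a glutaredoxin (-0.58, limma adjusted p = 0.012). GSR, which recycles oxidised glutathione (-0.26, adjusted p = 0.0637), GSS (-0.27, adjusted p = 0.0785), GPX1 (-0.14, adjusted p = 0.247) and GPX4 (-0.29, adjusted p = 0.0529) did not pass in limma, although GPX4 did without shZNF148 replicate 2 (-0.33, adjusted p = 0.0371). For GPX4 the other leave-outs of a single library gave a limma adjusted p of 0.0818 to 0.166. The 20 rows for thioredoxin and peroxide removal split evenly, with 10 higher, and 4 had an unadjusted limma p under 0.05. CAT, catalase, rose from 25.0, 30.6 and 31.8 to 39.6, 50.5 and 39.2 FPKM (log2 fold change 0.55, limma adjusted p = 0.0418, and between 0.0527 and 0.129 with single libraries left out), a change under 1.5-fold, and SOD1 did not pass (0.20, adjusted p = 0.128).

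NADPH supply, on which AKR1C, NQO1 and TXNRD1 enzymes draw, had 4 of 11 rows higher and 7 lower. PGD (log2 fold change -0.03, limma adjusted p = 0.843), TKT (-0.12, adjusted p = 0.358) and ME1 (0.10, adjusted p = 0.317) did not pass, and TALDO1, of the pentose phosphate pathway, fell (-0.32, adjusted p = 0.0468). No row of this list met the call rule of limma, and 3 had an unadjusted p under 0.05 (33.8% of all fitted rows). Of 16 rows for other detoxification, 10 were higher, none was called by limma and 5 had an unadjusted p under 0.05. UGDH (0.48, adjusted p = 0.0309) and ALDH3A2 (0.54, adjusted p = 0.0467) rose and PTGR1 (-0.43, adjusted p = 0.0447) fell at the limma adjusted p alone, while CBR1 (0.15, adjusted p = 0.197) and ABCC1 (0.15, adjusted p = 0.173) did not pass. None of the 3 fitted rows of other aldo-keto reductases was called by limma or had an unadjusted p under 0.05.

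Haem and iron handling had 5 of 12 rows higher, and 4 had an unadjusted limma p under 0.05. Besides SLC40A1, 1 of 2 rows of IREB2 passed at the limma adjusted p (0.48, adjusted p = 0.0206), but with both rows summed the log2 fold change was -0.0061. The second IREB2 row was 6.61, 5.98 and 6.65 FPKM in shCtr and 4.35, 0.00075 and 6.19 FPKM in shZNF148 replicates 1, 2 and 3, with replicate 2 near 0. The row that passed was 6.94, 6.90 and 7.09 FPKM in shCtr and 11.1, 9.57 and 9.77 FPKM in shZNF148. In shZNF148 replicate 2 the sum therefore rests almost wholly on that row, which lowers the summed change. FTL and FTH1, the ferritin chains, did not pass (limma adjusted p = 0.99 and 0.348). Without shZNF148 replicate 2 FTL passed at -0.30 (limma adjusted p = 0.0393) and FTH1 did not (0.07, adjusted p = 0.725). The 10 rows of ATF4 and its targets, among which SLC7A11 is usually counted, had a median log2 fold change of -0.43, and 9 of them were lower, as were 49.1% of all fitted rows. At the limma adjusted p 3 of the 10 (30%) were lower, against 8.13% of all fitted rows, and the list itself was not tested. An unadjusted limma p under 0.05 was found in 5 of the 10, and in 33.8% of all fitted rows. ATF4 was 90.4 ± 11.9 and 71.8 ± 5.91 FPKM (SD, n = 3 each; limma adjusted p = 0.0916), and ASNS (-0.53, adjusted p = 0.0178) and VLDLR (-0.58, adjusted p = 0.0343) fell at the limma adjusted p beside ATF3. Rows that passed the adjusted p without being called, other than BACH1, MAFF, SLC3A2 and CAT, and AKR7A2, were named after their values were seen.

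**Figure D3:**
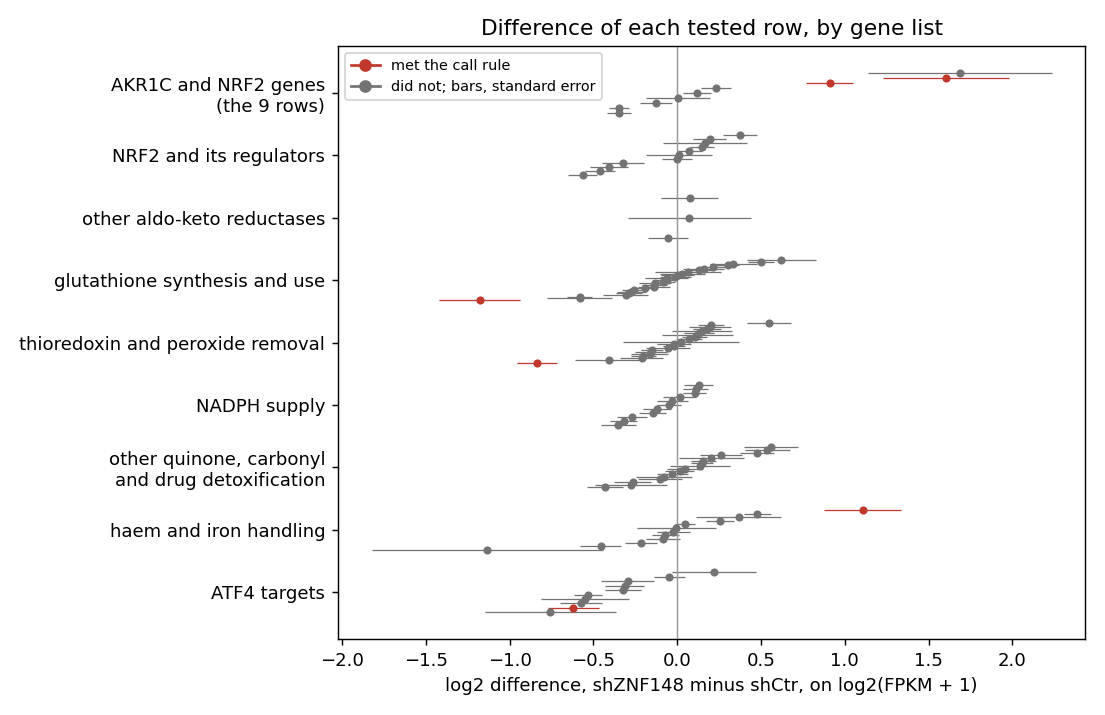
log2 difference of shZNF148 minus shCtr on log2(FPKM + 1) (horizontal axis) for the 9 rows at the top and the 108 other fitted rows by list, with bars of 1 standard error and rows that met the call rule in red. The joined AKR1C row (1.60) and HMOX1 (0.91) are red at the top, and 4 other rows are red, SLC40A1 to the right and MGST1, SOD2 and ATF3 to the left.

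Among the rows compared, the 4 whose pattern over the 6 libraries lay closest to the joined AKR1C row were not NRF2 genes. Likeness was measured as the root mean square distance between log2(FPKM + 1) values, each centred on its shCtr mean. The comparison covered the 8711 rows that averaged 5 FPKM or more and had no value of 0. AKR1C2 averaged less than 5 FPKM and was not among them. IFIT1 was closest at 0.085, followed by IFIT3 (0.091), IFIT2 (0.101) and CX3CL1 (0.164). The IFIT genes encode interferon-induced antiviral proteins and CX3CL1 a membrane-bound chemokine. IFIT1 was 13.7, 12.8 and 13.4 FPKM in shCtr and 31.4, 74.4 and 31.8 FPKM in shZNF148 replicates 1, 2 and 3. CX3CL1 was 10.3, 10.2 and 9.13 FPKM in shCtr and 20.4, 51.2 and 19.6 FPKM in shZNF148 replicates 1, 2 and 3. In each of these rows, as in the AKR1C rows, replicate 2 was the highest knockdown library. These rows were picked for their likeness, and no test is given for it.

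**Figure D4:**
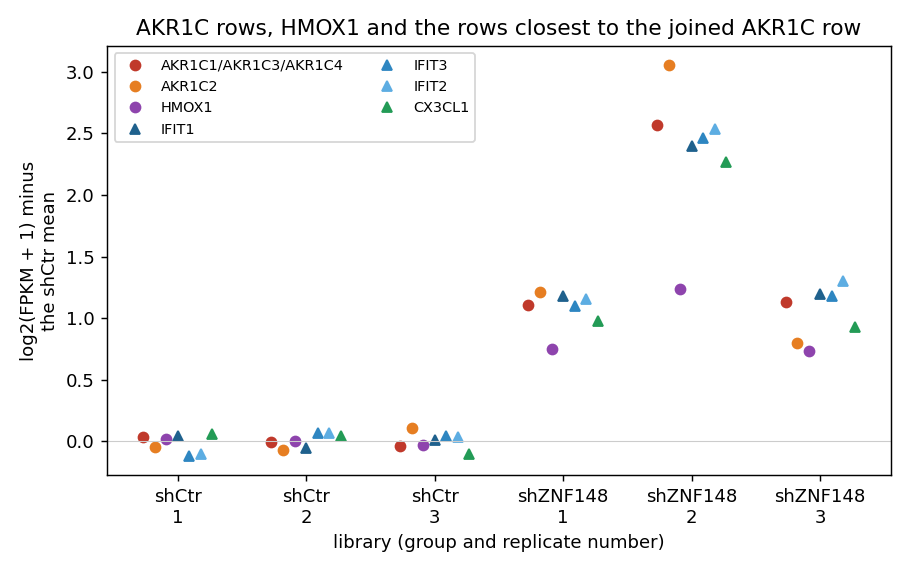
log2(FPKM + 1) minus the shCtr mean (vertical axis) in each of the 6 libraries (horizontal axis) for the AKR1C rows and HMOX1 (circles) and the 4 rows closest to the joined AKR1C row (triangles). The triangles lie near the joined AKR1C row in every library, and IFIT1 reaches 74.4 FPKM in shZNF148 replicate 2, while HMOX1 shows a smaller excursion in that library.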

How the data were processed

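The authors deposited 1 table of normalised FPKM values covering all 6 samples, and 0 columns were left unused. The submitters' processing notes name bcl2fastq 2.17.1.14, TopHat2 2.0.14, Cufflinks 2.2.1 and Cuffnorm 2.2.1 with hg18 and hg19, without roles, whereas the study's methods name Salmon, GRCh38 and DESeq2. Which of these made the table is therefore not settled, nor is how reads shared by near-identical genes were assigned. Read numbers are unknown, and no count test was run.

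Values were used as log2(FPKM + 1). The 11777 of 24108 rows averaging 1 FPKM or more were fitted with limma 3.58.1 (R 4.3.3) on condition alone, letting the variance follow the mean level, with the Benjamini-Hochberg correction taken over all fitted rows. The steps were tested on simulated data. Groups came from the sample titles.

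The 10 genes and the pathway lists were chosen with earlier results of these data known. Named genes were the 10, ZNF148, called rows of each list, a fixed set of regulators and enzymes, and the 4 rows closest to the joined AKR1C row. Genes were located in GENCODE release 44, and all but 1 of the 122 list genes (MSRB1) were found. Alternatives covered the filter, pseudocount, scaling, variance model, rows listed at 0, rows sharing a symbol, the replicate block and leaving out each library. Tables and figures used Python 3.11.15, pandas 2.3.3 and matplotlib 3.10.9. Some genes of the lists are counted but not reported here by name.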

Additional observations from a re-analysis of the deposited data

How the results depend on the processing

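The direction of 8 of the 9 rows was the same under all settings in which they were fitted. SLC7A11 was the exception, at -0.11 to 0.21 on the log2 scale when single libraries were left out. The joined AKR1C row ranged from 1.12 to 1.85, HMOX1 from 0.75 to 1.00 and AKR1C2 from 0.70 (pseudocount 5 FPKM) to 2.97 (0.1 FPKM). AKR1B1 and TXNRD1 moved to -0.24 and -0.26 under quantile normalization. The number of the 9 rows past the call rule was 2, became 1 without a filter and 1 with the replicate block, in both cases HMOX1, and ranged from 0 to 2 with single libraries left out. It was 3 with a pseudocount of 0.1 FPKM, where AKR1C2 was called as well. AKR1C2 could not be fitted with a mean of 5 FPKM required or without shZNF148 replicate 2.

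Over all rows, 216 were called higher and 431 lower. With a pseudocount of 5 FPKM the counts were 76 and 204. With the replicate block they were 99 and 216, and with single libraries left out 3 to 222 and 26 to 397. Deviations of same-numbered libraries from their group means correlated at 0.001, -0.088 and 0.030 for numbers 1, 2 and 3. Those of differently numbered libraries correlated at -0.085 to 0.083. Whether same-numbered libraries were made together cannot be told from these values. Other pathway rows called higher were 1 as reported, 0 with a mean of 5 FPKM required and 0 with a pseudocount of 5 FPKM, and 0 to 1 with single libraries left out. Those called lower were 3, became 6 with a pseudocount of 0.1 FPKM and 1 with the replicate block, and ranged from 0 to 4 with single libraries left out. ZNF148 ranged from -1.74 to -1.45 with single libraries left out and from -2.57 to -0.69 over the pseudocounts, and it could not be fitted with a mean of 5 FPKM required.

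Of 42 other named pathway rows, 6 changed sign under some setting. PGD was 0.043 and FTL 0.196 under quantile normalization, and IREB2 was -0.0061 with its rows summed. With single libraries left out, AKR1A1 ranged from -0.176 to 0.050, GCLC from -0.056 to 0.053, TXNIP from -0.415 to 0.252, PGD from -0.127 to 0.032 and FTL from -0.298 to 0.145. With the replicate block 7 of the 17 rows past the adjusted p stayed past it. The cause of these changes was not tested.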

Other observations

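In 3 of the named genes, picked for this pattern after their values were seen, shZNF148 replicate 2 lay above the other libraries. FTL was 3953, 3726 and 3627 FPKM in shCtr and 3075, 5638 and 3052 FPKM in shZNF148 replicates 1, 2 and 3, so that knockdown replicates 1 and 3 lay below all controls and replicate 2 above them. FTH1 was 478.2, 405.9 and 516.1 FPKM in shCtr and 534.8, 901.2 and 445.5 FPKM in shZNF148. TXNIP, which binds and restrains thioredoxin, was 267.1, 226.9 and 228.5 FPKM in shCtr and 176.7, 446.6 and 183.2 FPKM in shZNF148. TXN, by contrast, was lowest among the knockdown libraries in replicate 2, at 313 FPKM. Without replicate 2 the log2 fold change of TXNIP was -0.41 (limma adjusted p = 0.0327), against 0.02 (adjusted p = 0.973) with it. With any other library left out, the limma adjusted p of TXNIP lay between 0.664 and 0.987. ZNF148 itself was lowest in shZNF148 replicate 2, at 0.282 FPKM.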
